A study of Arabidopsis thaliana with 8 samples.

Results

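The genes described here are the 7 conserved calmodulin genes of Arabidopsis thaliana, CAM1 to CAM7, and 3 close calmodulin-like genes, CML8, CML9 and CML11, chosen by their gene identifiers. They are 10 of the 24279 genes listed in the deposited files, and all 10 were among the 20262 genes that passed the filter on low counts. The RNA came from roots of 6-d-old seedlings of 2 genotypes, wild-type Col and the line cml24-2, named for CML24, a calmodulin-like gene outside these 10. Seedlings of each genotype had spent 6 h in nutrient solution at pH 5.0 with 10 µM AlCl3 or with 0 µM, the control, and about 500 were treated. Each of the 4 groups had n = 2 libraries: wild-type control, wild-type Al, cml24-2 control and cml24-2 Al. The series title places the study in the question of how CML24 bears on aluminium (Al) resistance. What lesion cml24-2 carries is not in the labels. Nor is whether the libraries of a group were separate cultures, and the p-values reflect the spread among these libraries alone, which may be technical.

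Calmodulin is a small protein whose EF-hand loops bind calcium. Binding opens hydrophobic surfaces with which it grips and switches enzymes, channels, pumps and transcription factors. Plants hold several genes for nearly identical calmodulins and a larger set of calmodulin-like (CML) proteins that share the EF hands and differ more in sequence. In roots, calcium signals pass through these proteins during growth and under salt, touch, cold and metal stress.

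Sequences were read from 1 transcript per gene, the first-numbered model in the RefSeq annotation (TAIR10.1). Each CAM transcript had 450 coding bases, 149 protein residues and 4 matches to the EF-hand loop pattern. In these transcripts the 7 genes encoded 4 proteins. Other transcripts were not compared, and the levels given below are per gene. For CAM5 the authors list lengths of 799.11 to 809.23 bases, against 776 for this transcript, so its level can include others. CAM1 and CAM4 encoded the same protein although 47 of their coding bases differed. CAM2, CAM3 and CAM5 encoded a second one, and CAM2 differed from CAM3 at 39 coding bases and from CAM5 at 65. CAM7 differed from CAM2 by 1 residue, CAM6 by 2 and CAM1 by 5. CML11, of 173 residues, and CML8, of 151, had 75.2% and 73.2% of aligned residues in common with CAM2 and were 85.4% identical to each other. CML9, also of 151 residues, was the farthest, at 49.7%, and kept the loop pattern at 2 places. The coding bases of the first loop are shown 5′ to 3′, spliced, to show how genes for the same protein can be told apart in reads. Capitals mark bases that differ from CAM2.
CAM2: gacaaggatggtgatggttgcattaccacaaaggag
CAM3: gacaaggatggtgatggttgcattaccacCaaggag
CAM5: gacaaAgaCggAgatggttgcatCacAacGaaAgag
CAM1: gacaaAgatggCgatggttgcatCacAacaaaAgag
CAM4: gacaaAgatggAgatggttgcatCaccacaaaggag
CML11: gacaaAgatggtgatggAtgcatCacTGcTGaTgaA
CML8: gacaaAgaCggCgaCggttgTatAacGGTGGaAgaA
CML9: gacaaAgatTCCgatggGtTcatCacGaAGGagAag
CAM5 differed from CAM2 at 7 of these bases and CAM3 at 1, with no change of residue in either. CML8, CML9 and CML11 differed at 13, 12 and 9 bases and at 2, 5 and 2 residues. CAM2 and CAM3 were also the CAM genes with the longest identical transcript stretch, 41 bases. Their deposited counts carried fractions in 7 of 8 libraries that complemented each other, which shows reads divided between them by the authors' estimation. CAM2 and CAM3 are therefore also given as a sum. Counts of CML11 were fractional in 8 of 8 libraries with no single complementary gene, those of CML8 in 3 and of CAM7 in 1. CML8 and CML11 shared the longest identical transcript stretch of all pairs of members, 49 bases, and a sum of them was not tested. CAM1, CAM4, CAM5, CAM6 and CML9 had whole counts in all 8 libraries.

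The libraries held 11743432 to 12188917 expected counts, which puts 3 counts at 0.246 to 0.255 CPM (counts scaled to a common library total), below the level of each member in each library. The common biological coefficient of variation was 11%. The wild-type control libraries stood farthest apart, with a chi-square per degree of freedom of 17.0 between replicates against 3.97 to 7.17 in the other groups. The 12 root cell markers were detected in all 8 libraries. Their summed level was 2006 and 2714 CPM in wild-type control, 436 and 426 in wild-type Al, 1595 and 1917 in cml24-2 control, and 491 and 594 in cml24-2 Al. The iron-uptake genes IRT1 and FRO2 held most of that sum in the control libraries. IRT1 was at 495 and 729 CPM in wild-type control and 68.6 and 58.0 with Al. FRO2 was at 821 and 1269 CPM in wild-type control and 108 and 95.7 with Al. Root hair markers fell further in proportion in wild type, with COBL9 going from 52.0 and 62.0 to 2.82 and 3.72 CPM. EXPA7 went from 29.5 and 26.8 to 1.49 and 1.82 CPM, and EXPA18 from 27.5 and 43.6 to 1.33 and 2.77. Some other root markers moved less. PIN2, an auxin carrier, went from 131 and 134 to 87.2 and 95.2 CPM in wild type. WOX5, of the root tip, was at 1.35 and 1.98 in wild-type control and 1.74 and 1.56 with Al. The 11 markers of green shoot tissue had a count above 0 in every library. Their summed levels were 158 and 184, 78.1 and 43.7, 236 and 296, and 143 and 162 CPM in the same order. LHCB2.1 lay under the level of 3 counts in the first wild-type control library (0.238 CPM) and the first wild-type Al library (0.166 CPM). In whole roots, fewer cells of a type and less RNA per cell cannot be told apart.

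In wild-type control roots the members spanned a wide range of levels per transcript length. In FPKM, a read level scaled to library size and transcript length, CAM1 was the highest at 215 ± 6.13 (SD, n = 2). CAM3 followed at 171 ± 22.5, CAM4 at 159 ± 6.22 and CAM7 at 156 ± 2.62, and the libraries of these 3 overlapped. CAM2 at 109.7 ± 14.3 and CAM5 at 103 ± 0.417 FPKM could not be separated either. Below them stood CAM6 at 62.3 ± 0.106, CML9 at 41.2 ± 7.79, CML11 at 20.8 ± 5.76 and CML8 at 11.1 ± 2.55 FPKM, with no overlap of neighbours. With Al the wild-type order changed: CAM1 stayed first at 280.1 ± 9.50 FPKM and CAM4 second at 165 ± 15.2. CML11, at 124 ± 0.269 FPKM, was now the third, above CAM5 at 118 ± 3.71 and CAM3 at 108 ± 6.54. CAM2 was at 68.4 ± 14.2 FPKM, with libraries that overlapped those of CAM6 at 74.7 ± 2.50 and CML9 at 77.3 ± 3.17. CML8 remained last at 3.49 ± 0.247 FPKM.

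**Figure D1:**
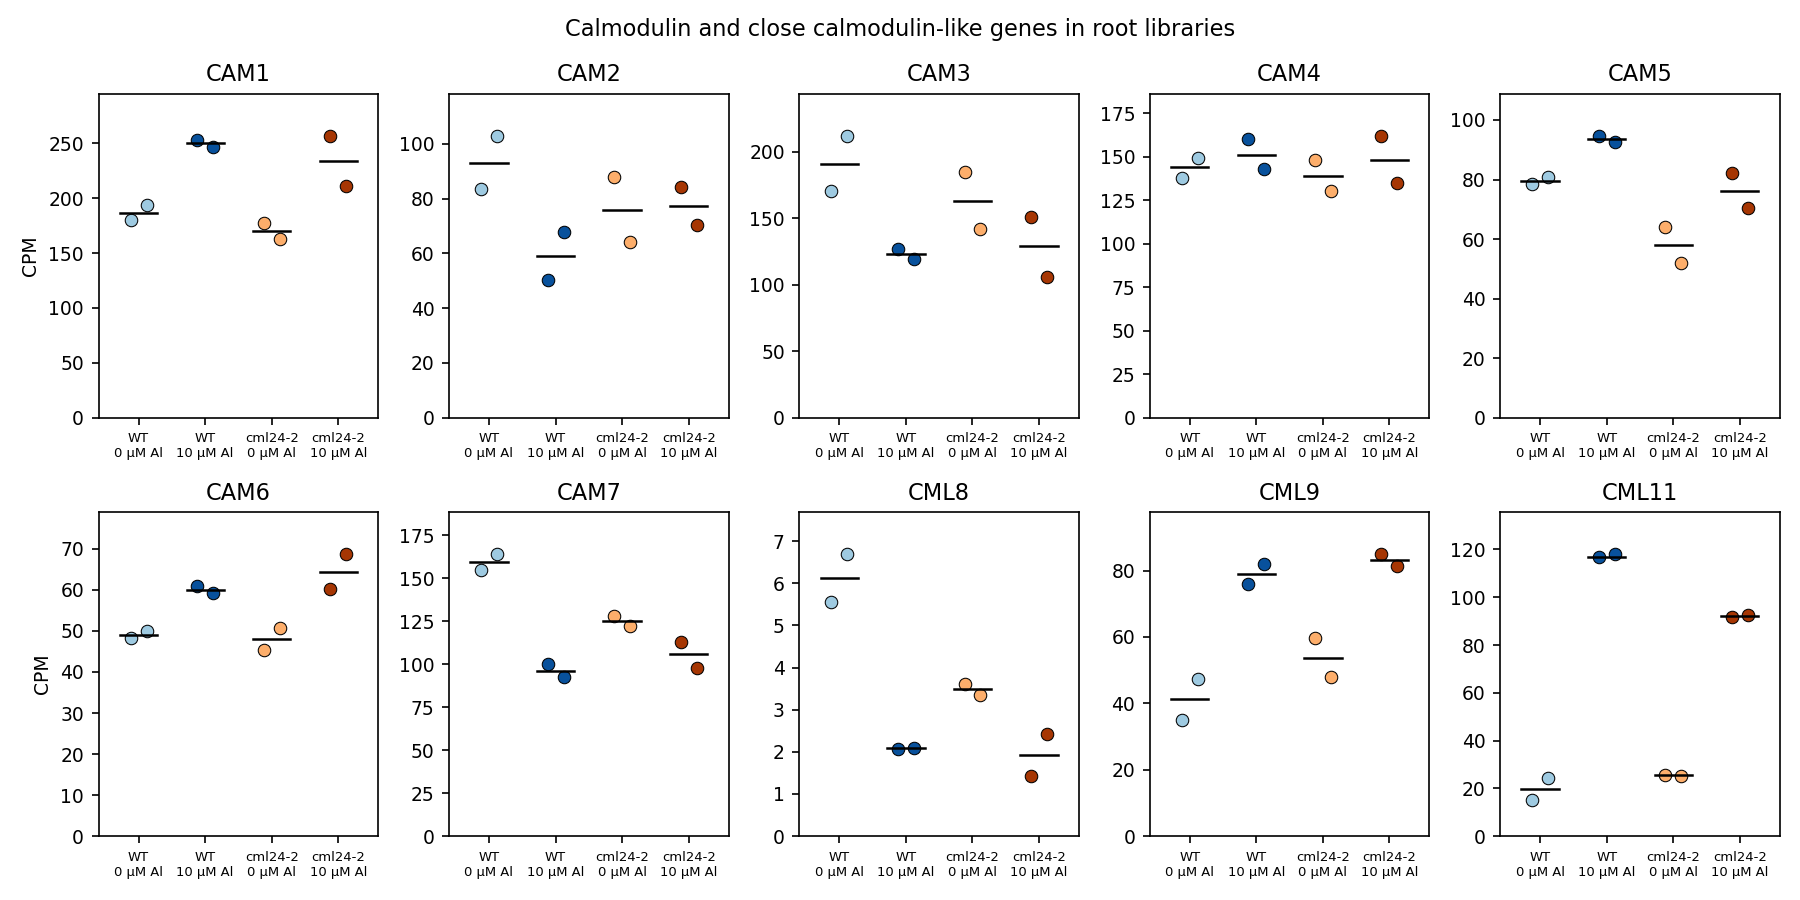
Level of each member in the 8 libraries, in CPM on an axis that starts at 0 and differs between panels. Points are libraries and bars are means of n = 2. CML11 lies at 15.1 to 25.5 CPM in the 4 control libraries and at 91.6 to 118 CPM in the 4 Al libraries, whereas CAM4 overlaps in all groups.

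Al changed the levels of most members in wild-type roots, in both directions. CML11, CML9, CAM1 and CAM6 rose, and CAM7, CML8, CAM2 and CAM3 fell (edgeR quasi-likelihood test, Benjamini-Hochberg adjusted p under 0.05). The 4 that rose are read against 25.1% of all genes tested that rose, and the 4 that fell against 25.9%. In either direction 51.0% of all genes passed. In cml24-2, CML11, CML9, CAM6, CAM1 and CAM5 rose and CML8 fell, so that 5 rose where 21.3% of all genes did, and 1 fell where 23.3% did. Passing in either direction there were 44.6% of all genes. The median log2 fold change of the 10 members was 0.15 in wild type and 0.24 in cml24-2, beside medians of all genes of -0.00048 and -0.0053. In both genotypes 11 of the 12 root cell markers and 7 of the 11 shoot markers fell with Al, although for the shoot markers in cml24-2 1 to 4 did when any of the 4 cml24-2 libraries was left out. Their part in the members' changes was not tested.

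**Figure D2:**
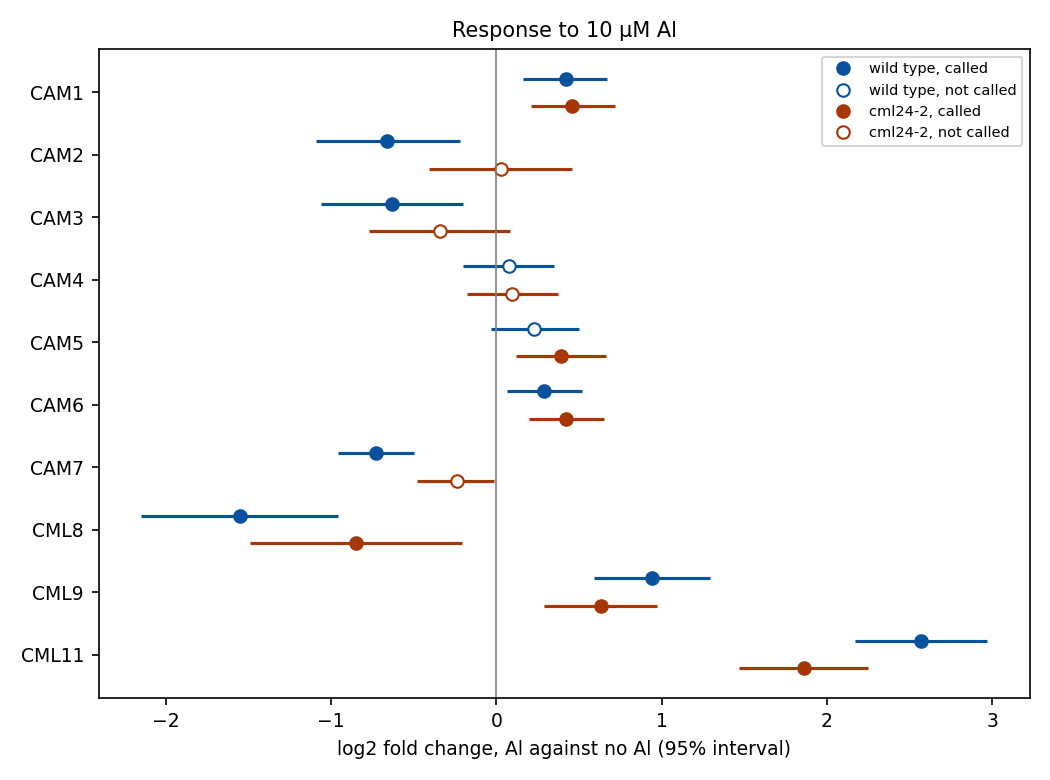
Log2 fold change of each member with Al against the control of the same genotype, with 95% intervals. Filled points have an edgeR adjusted p under 0.05. CML11 lies farthest to the right at 2.57 in wild type and 1.86 in cml24-2, CML8 farthest to the left at -1.55 and -0.85, and CAM2, CAM3 and CAM7 are filled in wild type and open in cml24-2.

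CML11 (AT3G22930, chr3:8124020-8125931, minus strand) showed the largest rise of the 10. Its levels were 15.1 and 24.3 CPM in wild-type control and 117 and 118 CPM in wild-type Al. In cml24-2 they were 25.5 and 25.2 CPM in control and 91.6 and 92.7 CPM with Al. All Al libraries stood above all control libraries, and the cml24-2 Al pair lay below the wild-type Al pair. The rise was 5.94-fold in wild type (log2 2.57, SE 0.18, edgeR adjusted p = 6.1e-06). It was 3.63-fold in cml24-2 (log2 1.86, SE 0.17, edgeR adjusted p = 4.8e-05). The interaction, which is the response in cml24-2 minus that in wild type, came to a log2 of -0.71 (SE 0.24, edgeR adjusted p = 0.28). Without the second wild-type control library it was -1.09 (edgeR adjusted p = 0.0072), so the outcome of the test depended on that library.

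CML8 (AT4G14640, chr4:8397693-8400226, plus strand), the closest relative of CML11 among the members and a gene linked to bacterial immunity, moved the other way. It was at 5.55 and 6.69 CPM in wild-type control and at 2.07 and 2.08 CPM with Al. In cml24-2 it was at 3.6 and 3.36 CPM in control and 1.43 and 2.43 CPM with Al. The wild-type control pair stood above all other libraries. The log2 fold change was -1.55 (SE 0.26, edgeR adjusted p = 0.0011) in wild type and -0.85 (SE 0.28, edgeR adjusted p = 0.037) in cml24-2. These levels rest on 16.9 to 81 expected counts a library, and the cml24-2 call was lost in DESeq2 (adjusted p = 0.15) and in 5 of the fits that left out a library: either wild-type Al library, either cml24-2 control library or the first cml24-2 Al library (edgeR adjusted p of 0.059 to 0.21). Per length, CML11 was 1.81 and 1.93 times CML8 in wild-type control and 33.8 and 37.3 times with Al. In cml24-2 the ratio of FPKM was 4.22 and 4.15 in control and 40.5 and 20.4 with Al. The length the authors list for CML8 varied between 510.96 and 640.46 bases over the libraries, which enters these FPKM ratios and not the CPM.

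CML9 (AT3G51920, chr3:19267951-19269658, minus strand) is known from salt, abscisic acid and flagellin responses. It was at 35 and 47.4 CPM in wild-type control, 75.8 and 82.1 in wild-type Al, 59.7 and 47.8 in cml24-2 control, and 84.9 and 81.5 in cml24-2 Al. Every Al library was above every control library, and the cml24-2 control pair began just above the wild-type one. CML9 rose 1.92-fold in wild type (log2 0.94, SE 0.15, edgeR adjusted p = 8.7e-04) and 1.55-fold in cml24-2 (log2 0.63, SE 0.15, edgeR adjusted p = 0.0086). The cml24-2 call was lost without the second control library (0.48, edgeR adjusted p = 0.07) or the first Al library of cml24-2 (0.60, edgeR adjusted p = 0.051).

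Among the CAM genes, CAM1 (AT5G37780, chr5:15004466-15006267, minus strand) rose in both genotypes. It was at 180.5 and 194 CPM in wild-type control, 253 and 247 in wild-type Al, 177 and 163 in cml24-2 control, and 257 and 211 in cml24-2 Al. Control and Al libraries did not overlap. The log2 fold change was 0.42 (SE 0.11, edgeR adjusted p = 0.013) in wild type and 0.46 (SE 0.11, edgeR adjusted p = 0.0093) in cml24-2, and their difference was 0.047 (95% interval -0.31 to 0.41). The wild-type call was lost without the first control library, the first Al library or the second Al library of wild type (edgeR adjusted p = 0.055, 0.07 and 0.051), and the cml24-2 call without the second control or the first Al library of cml24-2 (0.068 and 0.082). CAM4 (AT1G66410, chr1:24774113-24775984, minus strand), which encodes the same protein, was at 138 and 149, 160.4 and 143, 148 and 130.0, and 162 and 135 CPM in the same order. Its groups overlapped throughout, with log2 fold changes of 0.077 (95% interval -0.20 to 0.35, edgeR adjusted p = 0.63) in wild type and 0.095 (-0.18 to 0.37, edgeR adjusted p = 0.56) in cml24-2.

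The genes for the second shared protein did not move together. CAM2 (AT2G41110, also known as TCH1, a touch-induced gene, chr2:17140183-17141431, plus strand) was at 83.4 and 103 CPM in wild-type control, 50.3 and 67.9 in wild-type Al, 87.9 and 64.0 in cml24-2 control, and 84.4 and 70.5 in cml24-2 Al. CAM3 (AT3G56800, chr3:21034534-21036166, minus strand), linked to heat-shock signalling, was at 170.1 and 212, 127 and 119, 185 and 142, and 151 and 106 CPM. For both, the wild-type groups stood apart and the cml24-2 groups overlapped. CAM2 fell by 0.66 on the log2 scale (SE 0.19, edgeR adjusted p = 0.019) and CAM3 by 0.63 (SE 0.19, edgeR adjusted p = 0.02) in wild type. As a sum, which does not depend on how shared reads were split, they fell by 0.64 (SE 0.18, edgeR adjusted p = 0.015). In cml24-2 the values were 0.028 for CAM2 (95% interval -0.41 to 0.46, edgeR adjusted p = 0.92), -0.34 for CAM3 (-0.77 to 0.082, edgeR adjusted p = 0.17) and -0.22 for the sum (SE 0.18, edgeR adjusted p = 0.36).

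The wild-type fall of CAM2 lost its call without the second wild-type control library (-0.50, edgeR adjusted p = 0.072) or the first wild-type Al library (-0.46, edgeR adjusted p = 0.15). That of CAM3 lost it without the second wild-type control library (-0.46, edgeR adjusted p = 0.08), the first Al library (-0.68, edgeR adjusted p = 0.076) or the second Al library (-0.58, edgeR adjusted p = 0.11). Without the first cml24-2 Al library CAM3 was lower with Al in cml24-2 too (-0.63, edgeR adjusted p = 0.046). CAM2 overlaps the gene AT2G41120 by 157 bases in the annotation and holds the long non-coding RNA gene AT2G09225 within its bounds, and the sources used here do not say whether reads were counted by strand.

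CAM5 (AT2G27030, chr2:11531967-11534358, plus strand) rose in cml24-2. It was at 78.6 and 80.7 CPM in wild-type control, 94.7 and 92.5 in wild-type Al, 64.1 and 52.0 in cml24-2 control, and 82.1 and 70.4 in cml24-2 Al. The Al libraries were above the control libraries within each genotype. In cml24-2 the log2 fold change was 0.39 (SE 0.12, edgeR adjusted p = 0.025), and the wild-type value was 0.23 (95% interval -0.034 to 0.50, edgeR adjusted p = 0.13). The cml24-2 call was lost without the second control library (0.25) or the first Al library of cml24-2 (0.28), with an edgeR adjusted p of 0.17 in each. The interaction was 0.16 (95% interval -0.22 to 0.54), so the genotypes were not shown to differ in this response. Per length, CAM5 was 0.669 and 0.552 times CAM3 in wild-type control and 1.07 and 1.11 times with Al. In cml24-2 that ratio of FPKM went from 0.499 and 0.525 to 0.780 and 0.953.

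CAM6 (AT5G21274, chr5:7214474-7216052, minus strand) was at 48.3 and 49.9 CPM in wild-type control, 60.9 and 59.3 in wild-type Al, 45.4 and 50.7 in cml24-2 control, and 60.2 and 68.7 in cml24-2 Al. All 4 Al libraries lay above all 4 control libraries. The log2 fold change was 0.29 (SE 0.10, edgeR adjusted p = 0.037) in wild type and 0.42 (SE 0.10, edgeR adjusted p = 0.0082) in cml24-2. The wild-type call was lost in DESeq2 (adjusted p = 0.13), in limma on log2 FPKM (0.062 and 0.063 with the larger and smaller pseudocount) and without any 1 of the 4 wild-type libraries (edgeR adjusted p of 0.063 to 0.15). The cml24-2 call was lost without the first control or the second Al library of cml24-2 (edgeR adjusted p = 0.066 and 0.072).

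CAM7 (AT3G43810, chr3:15663000-15666469, minus strand), whose protein has also been described as a DNA-binding regulator of light-responsive genes, fell in wild type. It was at 155 and 164 CPM in wild-type control, 100.1 and 92.4 in wild-type Al, 128 and 122 in cml24-2 control, and 113 and 97.7 in cml24-2 Al. The wild-type control pair was the highest and the Al groups of the 2 genotypes overlapped. The log2 fold change was -0.73 (SE 0.10, edgeR adjusted p = 3.6e-04) in wild type and -0.24 (SE 0.10, edgeR adjusted p = 0.082) in cml24-2, with an interaction of 0.49 (SE 0.14, edgeR adjusted p = 0.22).

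Over all genes 0.301% passed the interaction test, and none of the 10 members did. At an unadjusted p under 0.05 there were 3, CAM7, CML11 and CAM2, and neither DESeq2 nor limma called any member. The Al response of these genes was thus not shown to differ between wild type and cml24-2, and the intervals leave room for a difference: 0.16 to 0.81 for CAM7, -1.25 to -0.17 for CML11 and 0.07 to 1.3 for CAM2. Without the second wild-type control library 1 member, CML11, was called.

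Added up per length, the 7 CAM genes gave totals from 769 to 1013 FPKM, while their shares moved with Al. Their summed level was 941 and 1013 FPKM in wild-type control, 928 and 885 in wild-type Al, 878 and 769 in cml24-2 control, and 992 and 841 in cml24-2 Al. The Al libraries lay just below the control libraries in wild type and overlapped them in cml24-2. Both cml24-2 control libraries lay below both wild-type control libraries, and the Al libraries of the genotypes overlapped. CAM1 and CAM4 together made up 38.8 and 37.8% of the wild-type control sum and 49.8 and 48.3% with Al. In cml24-2 their share was 40.7 and 41.7% in control and 47.1 and 46.0% with Al. CAM2, CAM3 and CAM5 held 38.1 and 40.5% in wild-type control and 31.5 and 33.6% with Al, against 39.1 and 34.0% and then 33.9 and 31.6% in cml24-2. CAM7 held 16.4 and 15.6% in wild-type control and 10.5 and 9.84% with Al, against 13.9 and 16.1% and then 11.4 and 12.1% in cml24-2. The share of the CAM1 and CAM4 protein was thus higher in each Al library than in each control library of both genotypes. These are shares of transcript, since protein was not measured, and they are given as a description without a test. The grouping by protein rests on 1 transcript per gene.

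**Figure D3:**
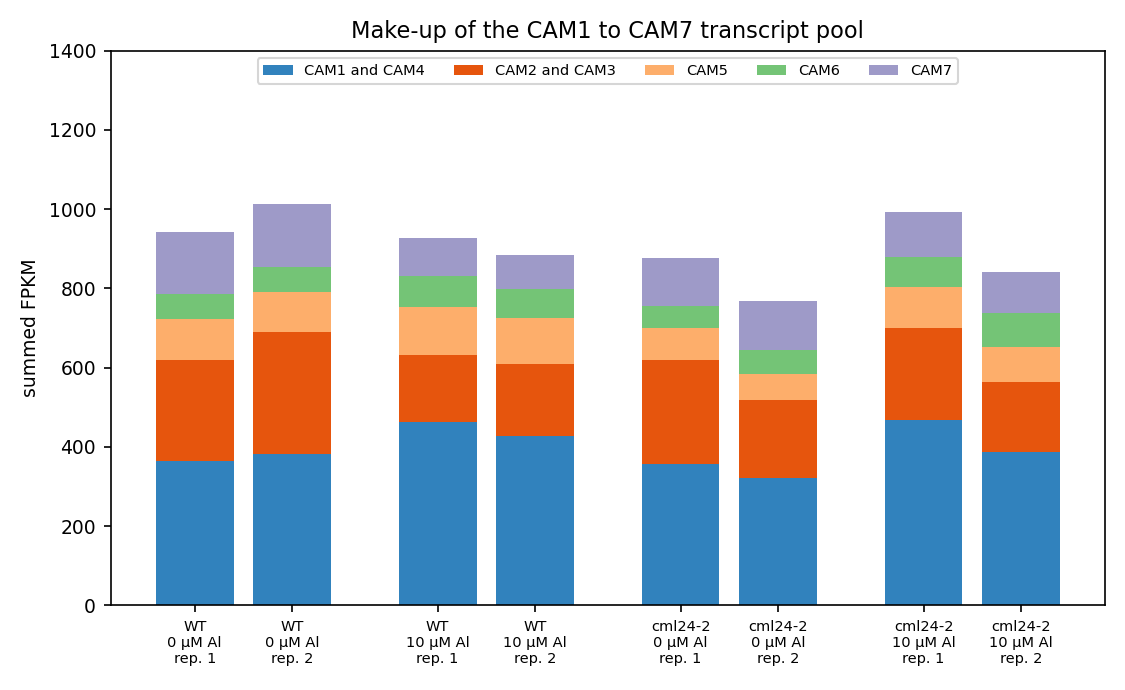
Summed FPKM of CAM1 to CAM7 in each library, stacked by the protein of the transcript read for each gene. CAM5 is drawn apart from CAM2 and CAM3. The height of the bars runs from 769 to 1013 FPKM. The lowest block, CAM1 and CAM4, is 365 and 382 FPKM in wild-type control and 462 and 427 FPKM in wild-type Al, and the top block, CAM7, shrinks from 155 and 158 to 97.3 and 87.1 FPKM.

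Without Al, CAM5 was the only member whose level differed between cml24-2 and wild type by the test. It was lower in cml24-2, at 58.1 ± 8.58 CPM against 79.6 ± 1.47 (SD, n = 2), a log2 difference of -0.46 (SE 0.12, edgeR adjusted p = 0.039). That is 1 member lower where 5.50% of all genes tested were lower. None was higher, where 7.41% were, and in either direction 12.9% of all genes passed. At an unadjusted p under 0.05 CML9 was higher, and DESeq2 and limma also called no member higher. The CAM5 call was lost with only the control libraries in the fit (edgeR adjusted p = 0.1) and without the second library of wild-type control, either wild-type Al library, the second cml24-2 control or the second cml24-2 Al library (0.05 to 0.2). CAM7 at -0.35 (SE 0.10, edgeR adjusted p = 0.053) and CML8 at -0.81 (SE 0.24, edgeR adjusted p = 0.059) missed the threshold. CAM7 passed with the size factors of DESeq2's method in edgeR (-0.38, adjusted p = 0.047) and without the first wild-type control library (-0.44, edgeR adjusted p = 0.037). CML9 at 0.38 (edgeR adjusted p = 0.13) and CML11 at 0.37 (edgeR adjusted p = 0.21) passed without the second wild-type control library, at 0.62 (edgeR adjusted p = 0.019) and 0.74 (edgeR adjusted p = 0.0032).

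With Al, none of the 10 members was called between the genotypes, where 4.63% of all genes were higher in cml24-2, 3.39% lower and 8.02% changed in either direction. At an unadjusted p under 0.05 there was CAM5 alone, at -0.30 (SE 0.12, edgeR adjusted p = 0.17), and DESeq2 and limma called none. CML11 was at 92.1 ± 0.721 CPM in cml24-2 and 117 ± 0.709 in wild type, a log2 difference of -0.34 (SE 0.16, edgeR adjusted p = 0.23). It passed with only the 4 Al libraries in the fit (edgeR adjusted p = 0.014) and without the first or the second wild-type control library (0.018 in both). CAM2 was higher in both cml24-2 libraries, by 0.39 (95% interval -0.046 to 0.83, edgeR adjusted p = 0.26). The comparisons between genotypes and those between Al and control use the same 4 groups, so a group that stands apart enters both. Shoot marker genes were higher in cml24-2 than in wild type in 5 of 11 with Al and 0 of 11 without, and their part was not tested. With Al, 10 of the 11 were higher when either wild-type control library was left out, and 1 was when either cml24-2 Al library or the second wild-type Al library was. Without Al, 5 were higher when the second wild-type control library was left out, and 2 when either wild-type Al library was. Of the 12 root cell markers, 2 were higher and 3 lower in cml24-2 without Al, and 3 higher and 2 lower with Al. The root hair marker COBL9 was at 21.1 and 26.7 CPM in cml24-2 control against 52.0 and 62.0 in wild-type control. With Al, no root marker was higher when any 1 of the 4 Al libraries was left out. Without Al, 1 was higher without the first wild-type control or the second cml24-2 control library, and 1 was lower when either cml24-2 control library was left out. Lower with Al there were 0 without the first cml24-2 Al library or when either wild-type Al library was left out, and 1 without the second cml24-2 Al library. The part of the root markers was not tested.

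**Figure D4:**
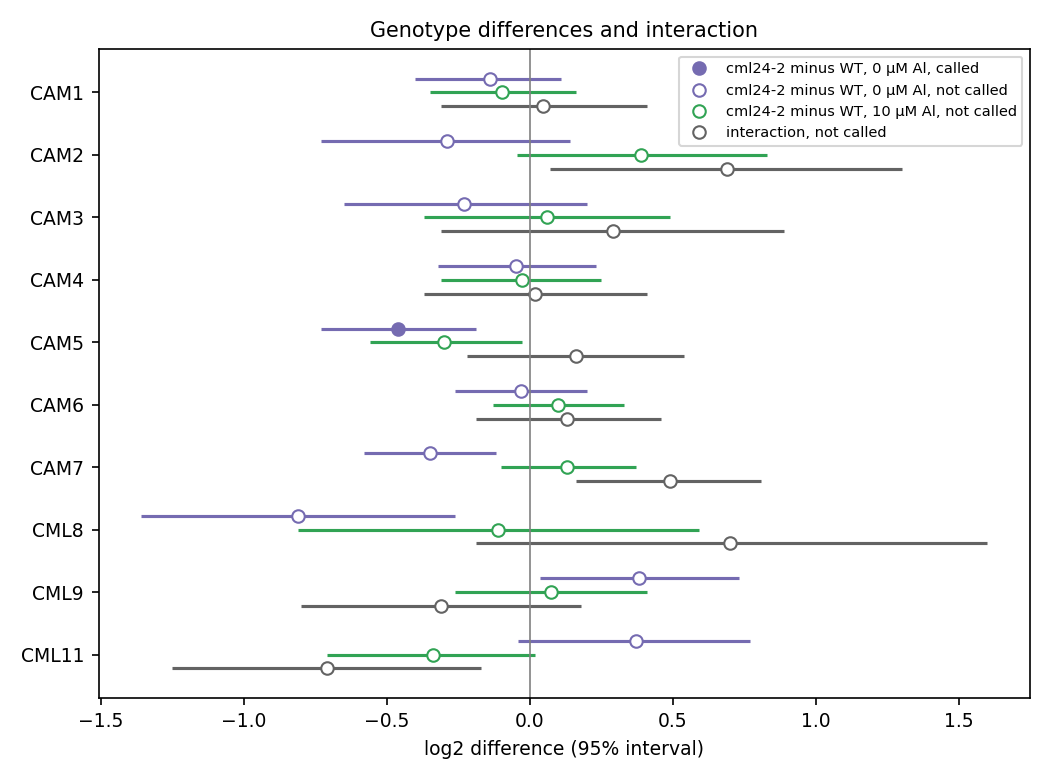
Log2 difference between cml24-2 and wild type without and with Al, plus the interaction, for each member, with 95% intervals. The only filled point, which marks an edgeR adjusted p under 0.05, is CAM5 without Al at -0.46. Interaction intervals of CAM2, CAM7 and CML11 leave out 0 but none passes the adjusted test.

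Some members lie beside other genes of the family. CML24 (AT5G37770, also TCH2), the gene named by the mutant, is the next annotated coding gene to CAM1, with a gap of 4846 bases. CML24 was at 43.5 and 102 CPM in wild-type control, 43.3 and 39.3 in wild-type Al, 189 and 118 in cml24-2 control, and 132 and 95 in cml24-2 Al. Its transcript was higher in cml24-2 with Al (log2 1.45, SE 0.37, edgeR adjusted p = 0.045), a call lost in DESeq2 (adjusted p = 0.066) and in both limma fits (0.063 and 0.069). It was also lost when any 1 of the 4 Al libraries (edgeR adjusted p of 0.11 to 0.23) or either cml24-2 control library (0.051 in both) was left out. Without Al the difference was 1.08 (edgeR adjusted p = 0.079), and 1.82 (edgeR adjusted p = 0.002) without the second wild-type control library. With the kind of allele not given, these levels do not check the genotype labels. The Al values of CML24 were -0.82 in wild type (edgeR adjusted p = 0.091) and -0.44 in cml24-2 (edgeR adjusted p = 0.34), against the rise of CAM1 next to it. Without the first wild-type control library the wild-type value was -1.33 (edgeR adjusted p = 0.0012).

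CML12 (AT2G41100, also TCH3), a touch-induced gene with extra EF hands, lies 482 bases from CAM2. It was at 39.3 and 58.8 CPM in wild-type control, 1001 and 1005 in wild-type Al, 163 and 112 in cml24-2 control, and 1088 and 1152 in cml24-2 Al. The Al libraries were far above the control libraries. CML12 rose by a log2 of 4.35 (SE 0.23, edgeR adjusted p = 1.6e-06) in wild type and 3.03 (SE 0.22, edgeR adjusted p = 1.3e-05) in cml24-2, while CAM2 fell in wild type. Without Al, CML12 was higher in cml24-2 than in wild type (1.48, SE 0.21, edgeR adjusted p = 0.0035). The interaction was -1.33 (SE 0.29, edgeR adjusted p = 0.11), and it passed in DESeq2 (-1.31, adjusted p = 3.0e-04) and without the second wild-type control library (-1.65, edgeR adjusted p = 0.013). CML23 (AT1G66400), the closest relative of CML24, lies 2719 bases from CAM4 and was at 4.44 and 17.8, 4.23 and 3.90, 18.2 and 7.73, and 12.1 and 7.28 CPM in the 4 groups. Its control libraries differed widely within each genotype, and its Al values were -1.44 (edgeR adjusted p = 0.09) and -0.42 (edgeR adjusted p = 0.58). Without the first wild-type control library the wild-type value passed, at -2.15 (edgeR adjusted p = 0.002).

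Of 47 other CML genes, 36 were tested. With Al, 10 rose and 9 fell in wild type, and 9 rose and 6 fell in cml24-2. Over all genes 25.1% rose and 25.9% fell in wild type, and 21.3% and 23.3% in cml24-2, so these counts lie near the background. Their median log2 fold changes were -0.066 and -0.022, and single genes ran from -5.38 to 6.17 in wild type. The 10 members ran from -1.55 to 2.57, but a range widens with the number of genes, so the spans are not comparable. Between the genotypes 4 were higher and 3 lower in cml24-2 without Al, and 3 higher and 1 lower with Al, where 7.41% and 5.50%, then 4.63% and 3.39%, of all genes were. The counts followed single libraries: 14 fell in wild type without the first wild-type control library, and 3 fell in cml24-2 when either cml24-2 Al library was left out. Without the second wild-type control library 14 were higher in cml24-2 without Al. Lower without Al there were 0 when either cml24-2 control library was left out, 0 with only the libraries compared in the fit, and 1 without the second wild-type control library or any 1 of the 4 Al libraries. With Al, 10 were higher when either wild-type control library was left out, 0 without the second cml24-2 Al library or when either wild-type Al library was, and 1 without the first cml24-2 Al library or when either cml24-2 control library was. The 1 lower with Al was lost when any 1 of the 4 Al libraries was left out.

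Calmodulin works through its targets, so 30 genes for known calmodulin-binding proteins were counted too, and all 30 were tested. With Al, 15 rose and 12 fell in wild type (median 0.38), and 13 rose and 9 fell in cml24-2 (median 0.15). The share of all genes that passed in either direction was 51.0% in wild type and 44.6% in cml24-2. DWF1, a brassinosteroid and sterol synthesis enzyme that needs calmodulin, went from 696 ± 20.9 to 190.3 ± 8.53 CPM in wild type (log2 -1.87, SE 0.099, edgeR adjusted p = 1.6e-06) and from 653 ± 27.4 to 216 ± 12.2 in cml24-2 (-1.59, SE 0.098, edgeR adjusted p = 5.3e-06). ACA9, a calcium pump of the plasma membrane with a calmodulin-binding end, fell from 21.3 ± 2.15 to 2.80 ± 0.0342 CPM in wild type (-2.92, SE 0.20, edgeR adjusted p = 6.2e-06) and from 8.26 ± 0.672 to 3.06 ± 0.894 in cml24-2 (-1.43, SE 0.21, edgeR adjusted p = 6.8e-04). CNGC14, a calcium channel of root cells, fell from 45.2 ± 0.490 to 12.1 ± 1.45 CPM in wild type (-1.90, SE 0.12, edgeR adjusted p = 4.2e-06).

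The vacuolar calcium pump ACA4 fell from 90.9 ± 3.29 to 32.0 ± 3.14 CPM in cml24-2 (-1.51, SE 0.16, edgeR adjusted p = 1.2e-04). Targets were named by the size of their called change, so ACA9 and ACA4 do not stand for calcium pumps as a group. CAMTA2, a calmodulin-binding transcription activator, rose there from 76.8 ± 0.771 to 197 ± 1.72 CPM (1.36, SE 0.09, edgeR adjusted p = 8.0e-06). MYB2, a transcription factor that binds calmodulin, went from 0.205 ± 0.177 CPM, under the level of 3 counts, to 2.75 ± 0.0954 in wild type (3.70, SE 0.47, edgeR adjusted p = 1.9e-04, a fitted value that depends on the prior count). Between the genotypes 4 of the 30 were higher and 2 lower in cml24-2 without Al, where 12.9% of all genes passed in either direction. The 3 that passed with Al were higher, where 8.02% of all genes passed in either direction. None of the 30 passed the interaction test, where 0.301% of all genes did. Targets named for 1 genotype only were thus not shown to respond in that genotype alone. Leaving out the first cml24-2 Al library left 5 that fell with Al in cml24-2. Without Al, 1 was higher without the first cml24-2 control library and 2 without any 1 of the 4 Al libraries, and 1 was lower when either cml24-2 control library was left out. With Al, 5 were higher when either wild-type control library was left out and 0 when any 1 of the 4 Al libraries was.

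The genes whose log2 CPM followed each member most closely over the 8 libraries were named by Pearson's r, given as a description, since the libraries share 4 groups and a strong Al effect. CML11 was followed by GSTF6, a glutathione transferase gene (r = 0.998), and by HB-7, a homeodomain-leucine zipper gene (0.997). For CML9 the closest were AT1G31130 and UGT76D1, both at 0.998, and for CML8 AT4G27480 and AT3G56230, both at 0.988. CAM1 was followed by VPS24.1 (0.993) and PFK3 (0.992), and CAM7 by AT1G48230 (0.992) and AT3G52730 (0.986). CAM6 had AT1G09645 (0.991) and MAPKKK5 (0.990), and CAM5 had AT4G02620 (0.987) and the borate transporter gene BOR4 (0.984). CAM3 had AT2G22795 (0.986) and AT5G63550 (0.983), and CAM2 had AT1G66070 (0.982) and AT5G10200 (0.972). CAM4, not called with Al in either genotype, had the lowest values, 0.959 for AT2G20690 and 0.945 for AT3G08990. No member was among the 2 closest genes of another.

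The sequence just upstream is shown for CAM2, CAM3 and CAM5, the genes of 1 protein that moved differently with Al. In the RefSeq TAIR10.1 genome, the 250 bases before the annotated gene start were searched on both strands for CGCG, the core of sites bound by CAMTA factors, and for ACGTG, the core of abscisic acid response elements. CAM2 held 2 CGCG and 1 ACGTG, CAM3 2 CGCG and 2 ACGTG, and CML9 1 CGCG. The other 7 members held neither in this window, among them CAM7 and CML8, which fell in wild type too, while CML9 rose. A link between these motifs and the Al response was not tested. Of 27443 upstream windows of protein-coding genes, 10.1% held CGCG and 22.9% held ACGTG. The 3 windows are shown 5′ to 3′ on the gene's strand, with these motifs in capitals. CAM2 is chr2:17139933-17140182 (plus strand), CAM3 chr3:21036167-21036416 (minus strand) and CAM5 chr2:11531717-11531966 (plus strand).
CAM2: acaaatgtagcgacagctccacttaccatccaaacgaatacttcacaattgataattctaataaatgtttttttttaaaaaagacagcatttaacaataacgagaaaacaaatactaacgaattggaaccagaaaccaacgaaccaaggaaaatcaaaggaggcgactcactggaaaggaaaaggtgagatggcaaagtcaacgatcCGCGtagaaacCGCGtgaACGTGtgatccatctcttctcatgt
CAM3: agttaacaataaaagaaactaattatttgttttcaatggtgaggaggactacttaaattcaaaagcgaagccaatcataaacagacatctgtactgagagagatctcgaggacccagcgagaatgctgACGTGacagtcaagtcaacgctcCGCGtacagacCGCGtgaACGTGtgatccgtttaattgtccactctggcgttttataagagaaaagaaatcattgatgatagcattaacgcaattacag
CAM5: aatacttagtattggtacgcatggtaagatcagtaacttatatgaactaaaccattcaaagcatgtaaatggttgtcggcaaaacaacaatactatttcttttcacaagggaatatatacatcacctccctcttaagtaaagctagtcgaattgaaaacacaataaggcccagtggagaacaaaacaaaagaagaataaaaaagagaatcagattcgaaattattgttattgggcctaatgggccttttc
CAM2 and CAM3 shared a stretch of 40 bases with 37 identical, which held both CGCG and an ACGTG of each gene, so the matches of the 2 genes there are not independent. No motif match overlapped another there. The next most alike of the 45 pairs of members had 28 identical bases of 40. Counted from the gene start, the stretch began at position -55 of CAM2 (chr2:17140128-17140167) and at position -111 of CAM3 (chr3:21036238-21036277).
CAM2: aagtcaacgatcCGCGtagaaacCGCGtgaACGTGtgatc
CAM3: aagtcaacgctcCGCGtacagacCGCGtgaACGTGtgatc
A match says only that these letters are present, and binding was not measured in these libraries.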

How the data were processed

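RNA-seq of roots gave 8 libraries in 4 groups of n = 2, sequenced on BGISEQ-500 per the labels' protocols. The deposited files list, per gene, the expected count, gene length and FPKM that the authors estimated with RSEM, per the submitters' processing notes. Of the upstream steps, the RSEM version, aligner and build were not given in the sources used here. Listed lengths equalled a RefSeq TAIR10.1 transcript for 12101 of 12245 single-transcript genes (98.8%). Gene coordinates, proteins and sequences are from RefSeq TAIR10.1, and 24086 of 24279 identifiers had a name there. Of the deposited counts, 89.1 to 89.5% per library were whole within 0.005.

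Expected counts were rounded and tested in R 4.3.3 with edgeR 4.0.16: TMM factors (0.9836 to 1.035), filterByExpr by group, and quasi-likelihood F tests fitted to all 8 libraries with 1 mean per group, since 2 libraries per group leave few degrees of freedom (4 residual). Tested were Al against control within each genotype, the genotypes against each other at each Al level, and the interaction. P-values were adjusted by Benjamini-Hochberg over 20262 genes, with calls under 0.05. CPM use normalized library totals, likeness used log2(CPM + 0.5), and floors of 3 counts cover counting error only. No batch is given in the labels.

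Alternatives were DESeq2 1.42.0, RLE size factors, no low-count filter (at least 1 count), a strict one (1 CPM in 4 libraries), a fit to only the libraries compared, a replicate block, limma 3.58.1 on log2(FPKM + 1) and log2(FPKM + 0.1), and leaving out each library. Summing CAM2 and CAM3 and a crossed block were added after the data were seen.

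The members, lists and tests were chosen with earlier results of these data known. The rule for names took all members, CML24, family genes beside a member, up to 4 calmodulin targets per Al comparison with the largest called change and a mean FPKM of at least 2, and the 2 genes most like each member. Other lists (47 CML genes, 30 targets, 12 root and 11 shoot markers) are given as counts.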

Additional observations from a re-analysis of the deposited data

How the results depend on the processing

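Over 835 values of the 50 member comparisons under 17 alternative settings, 765 kept direction and side of the threshold, 38 lost a call, 9 gained one and 23 changed sign. In all alternatives run, CML11 kept its rise in both genotypes (2.24 to 2.95 and 1.85 to 1.90). In wild type CML9 kept its rise (0.71 to 1.17), and CAM7 (-0.80 to -0.67) and CML8 (-1.71 to -1.41) kept their fall.

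No value that changed sign was called. With a library left out, CAM4 reached -0.0044 and -0.011 for Al in wild type (range -0.011 to 0.16), -0.046 for Al in cml24-2 (-0.046 to 0.22), 0.0099 and 0.041 between genotypes without Al (-0.15 to 0.041), 0.057 and 0.098 with Al (-0.17 to 0.098) and -0.041, -0.066, -0.072 and -0.12 in the interaction (-0.12 to 0.15). CAM1 ranged from -0.24 to 0.036 between genotypes with Al, and reached -0.0083, -0.011 and -0.10 in the interaction (-0.10 to 0.18). CAM2 with Al in cml24-2 reached -0.18 and -0.11 (-0.18 to 0.27), and -0.22 summed with CAM3. CAM6 between genotypes without Al ranged from -0.12 to 0.045. With Al, CAM3 ranged from -0.22 to 0.29 and CML8 from -0.54 to 0.22, and CML8 was 0.029 and 0.02 in limma. CML24 ranged from -0.36 to 0.92 (interaction) and CML23 from -0.91 to 0.32 (Al in cml24-2). The cause was not tested.

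Leaving out a library, members called ranged from 2 to 4 higher and 2 to 4 lower (Al in wild type), 2 to 5 higher and 0 to 1 lower (Al in cml24-2), 0 to 2 higher and 0 to 2 lower (genotypes without Al), and 0 to 1 lower with Al and in the interaction. Members lower with Al in cml24-2 were 0 in DESeq2, in both limma fits and with only the libraries compared, against 1. Members lower in cml24-2 without Al were 2 with RLE size factors and 0 with only the libraries compared, and with Al 1 in the latter. All genes called without Al between genotypes were 888 with only the libraries compared (main 2616) and 807 to 3060 leaving out a library, lowest without the first cml24-2 control library. With Al they were 3340 (main 1625) and 148 to 2788, lowest without the first wild-type Al library and highest without the first wild-type control library. The interaction had 200 in DESeq2 (main 61) and 12 to 482, lowest and highest without the same 2 libraries, and no fit to only the libraries compared, since it uses all 8.

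Same-numbered deviations correlated at -0.168 to 0.144 over genes. With n = 2 per group, these values cannot show whether same-numbered libraries were paired. With the replicate number as a block, members called were unchanged in number (4 higher and 4 lower, 5 and 1, 0 and 1, 0 and 0, 0 and 0), with 10318, 8989, 2531, 1405 and 57 genes called in all. Of the named genes recomputed, it ended 1 call, CML24 between genotypes with Al (adjusted p = 0.071). With Al, other CML genes higher in cml24-2 went from 3 to 1 and calmodulin targets from 3 to 1, and without Al root markers higher went from 2 to 4 and shoot markers from 0 to 1. A crossed block for the control libraries, added after the data were seen, called 2 members lower and 2764 genes. With n = 2, and CML8 at few counts, smaller differences were not detectable at this depth.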
